A study of Homo sapiens with 8 samples.

Results

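The 10 genes that encode the CUL2 ubiquitin ligase, its closest relatives and their adaptors and receptors were followed in HuCCT1 cells with and without knockdown of BEX2. The set holds 4 cullins (CUL1, CUL2, CUL3 and CUL5), the 3 FEM1 substrate receptors (FEM1A, FEM1B and FEM1C), the receptor VHL, and the elongins C and B, which the array names TCEB1 and TCEB2. Members were taken by gene name from the non-control spots of the array, and the probe with the highest mean over the 8 arrays stood for each gene. All 10 genes were measured, of 34809 gene names on the array and 20464 genes that passed a filter on dim probes, and every probe used for them was well above background on all 8 arrays.

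HuCCT1 is an established human intrahepatic cholangiocarcinoma cell line and the labels name no drug, starvation or sort. Its RNA was read on 8 single-colour Agilent arrays, 2 for each of the vectors shControl, shNontarget, shBEX2-1 and shBEX2-2. The labels call the first pair control cells and the second pair BEX2 knockdown cells, and all cells carry a short hairpin vector, which the study's methods describe as retroviral. The target sequences that those methods give for the hairpins are reverse complements of each other over nearly their whole length, so shBEX2-1 and shBEX2-2 do not address separate sites of the transcript as printed there. The study describes its control cells as carrying a hairpin against luciferase, without saying which control vector that is, and no source states if arrays with the same vector were made from different cultures, so that p-values measure only the spread between these arrays, which may be technical. Of the cholangiocyte markers, KRT7, KRT19, KRT8, KRT18, EPCAM, SOX9 and CDH1 were well above background on all 8 arrays. Of the markers of other cell types, ALB and TTR (hepatocytes), COL1A2 (fibroblasts) and PECAM1 (endothelial cells) were so on 0 arrays, while COL1A1 (fibroblasts), VWF (endothelial cells) and CD68 (leukocytes) were so on 8 and PTPRC (leukocytes) on 7.

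Cullins are the scaffolds of a family of ubiquitin ligases. The C-terminal end of a cullin holds the RING protein that recruits the ubiquitin-conjugating enzyme, and its N-terminal end holds a substrate receptor through an adaptor. CUL2 and CUL5 share elongins B and C as adaptors, whereas CUL1 works through SKP1 and F-box proteins and CUL3 binds BTB proteins directly. The FEM1 proteins and VHL are receptors of CUL2 ligases. FEM1 proteins recognize degrons at the C-terminus of some of their substrates, and VHL recognizes hydroxylated HIF-alpha subunits. The study examined CUL2 and FEM1B as a ligase for BEX2 protein, and the comparison here addresses whether the RNA of that ligase and of its relatives differed when BEX2 was knocked down.

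Because each value rests on 1 probe, the probes that the results turn on are given here as the array files print them, written 5′ to 3′. Capitals mark the longest run that a probe shares with a probe of another gene on the array. The CUL2 probe (A_24_P252794, for transcript NM_003591) is shown whole, and a stretch of 30 bases that holds the shared run is shown for the FEM1 probes.
CUL2: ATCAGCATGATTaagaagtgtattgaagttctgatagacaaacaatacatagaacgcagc
FEM1C: aattgtcacACAATGGAAAATCatatgcca
FEM1B: cccagAACTCTTGAAGAGTttgttggattt
FEM1A: tgtgcttccaaacAGAAATCAGGAGTGACc
The CUL2 probe lies on chromosome 10 of hg19 from 35299275 to 35299334 on the minus strand and shared a run of at most 12 bases with a probe of another gene. The FEM1C probe lies on chromosome 5 from 114856629 to 114856688, also on the minus strand. The FEM1B probe lies on chromosome 15 from 68583545 to 68583604, and the FEM1A probe on chromosome 19 from 4794783 to 4794842, both on the plus strand. The longest shared runs of the FEM1C, FEM1B and FEM1A probes were 13, 14 and 16 bases, and the partners were not other FEM1 genes. Over all 42405 probes of the array, 9.97% shared a run of 16 or more bases with a probe of another gene, and of the probes used for the 10 genes those of FEM1A and VHL did so, with 1 other probe each. The files give positions but no exon or UTR annotation, and none was used here.

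Values are given on a normalized log2 scale, the log2 of the processed intensity minus the 75th percentile of that array, so that a step of 1 is a 2-fold difference of signal for the same probe. A gene was called where limma's adjusted p was under 0.05 over all genes tested. In bulk RNA, fewer cells with a transcript and less of it per cell cannot be told apart.

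The knockdown was visible on the arrays. The normalized log2 values of BEX2 were -3.36 and -3.91 in shControl, -2.70 and -3.77 in shNontarget, -5.21 and -5.54 in shBEX2-1, and -4.92 and -4.60 in shBEX2-2. The BEX2 arrays of both hairpins lay below all control arrays, with a log2 difference of -1.63 (SE 0.32, adjusted p = 0.0116). The BEX2 difference was -1.94 in shBEX2-1 cells (95% confidence interval -2.83 to -1.05, adjusted p = 0.0336) and -1.32 in shBEX2-2 cells, where it was not called (adjusted p = 0.0813). In shBEX2-1 cells the probe was not well above background, so that the mean there is only a bound: at the processing used here the signal was at least 3.83-fold lower, a value that does not allow for the spread between arrays. After normexp background correction the BEX2 difference was -0.45 over both hairpins (adjusted p = 0.0796) and -0.40 in shBEX2-1 cells (adjusted p = 0.208), so that its size depends on how a dim signal is treated. The call over both hairpins was also lost with shNontarget alone as the control (adjusted p = 0.0786). In shBEX2-1 cells the call was lost when any array other than those of shNontarget was left out. Those fits leave 1 array for a vector, and most calls over the whole array were lost in them too.

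Some features of the arrays moved with the groups or with a vector, and their part in the results was not tested. The shNontarget arrays differed from each other by more than 1 log2 unit in 34.9% of genes, against 0.56% to 1.8% for the arrays of the other vectors. All 8 arrays shared 1 slide, with the control arrays in row 1 and the knockdown arrays in row 2, so that row and group cannot be told apart. The 75th percentile of intensity ran from 666 to 838 on the control arrays and from 441 to 631 on the knockdown arrays. Of 11 markers of other cell types 3 were well above background on all arrays and 4 on 0, and the mean normalized log2 value of the list ran from -5.53 to -4.99 in the controls and from -5.20 to -4.79 in the knockdown. The leukocyte marker CD68, a lysosomal protein of macrophages, was called higher by 0.99 (adjusted p = 0.0473), a call lost when any array other than those of shNontarget was left out (adjusted p up to 0.140). The mean of the 7 cholangiocyte markers ran from 4.62 to 5.09 in the controls and from 5.10 to 5.22 in the knockdown, with KRT8 called higher by 1.02 (adjusted p = 0.0165, up to 0.0552 with single arrays left out, not called without replicate 1 of either hairpin). Of the 7 differences, 5 were positive and 2 negative. On all knockdown arrays KRT8 and KRT18 were above, and SOX9 below, all control arrays, while the other markers overlapped. Of all genes, 22.1% did not overlap.

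**Figure D1:**
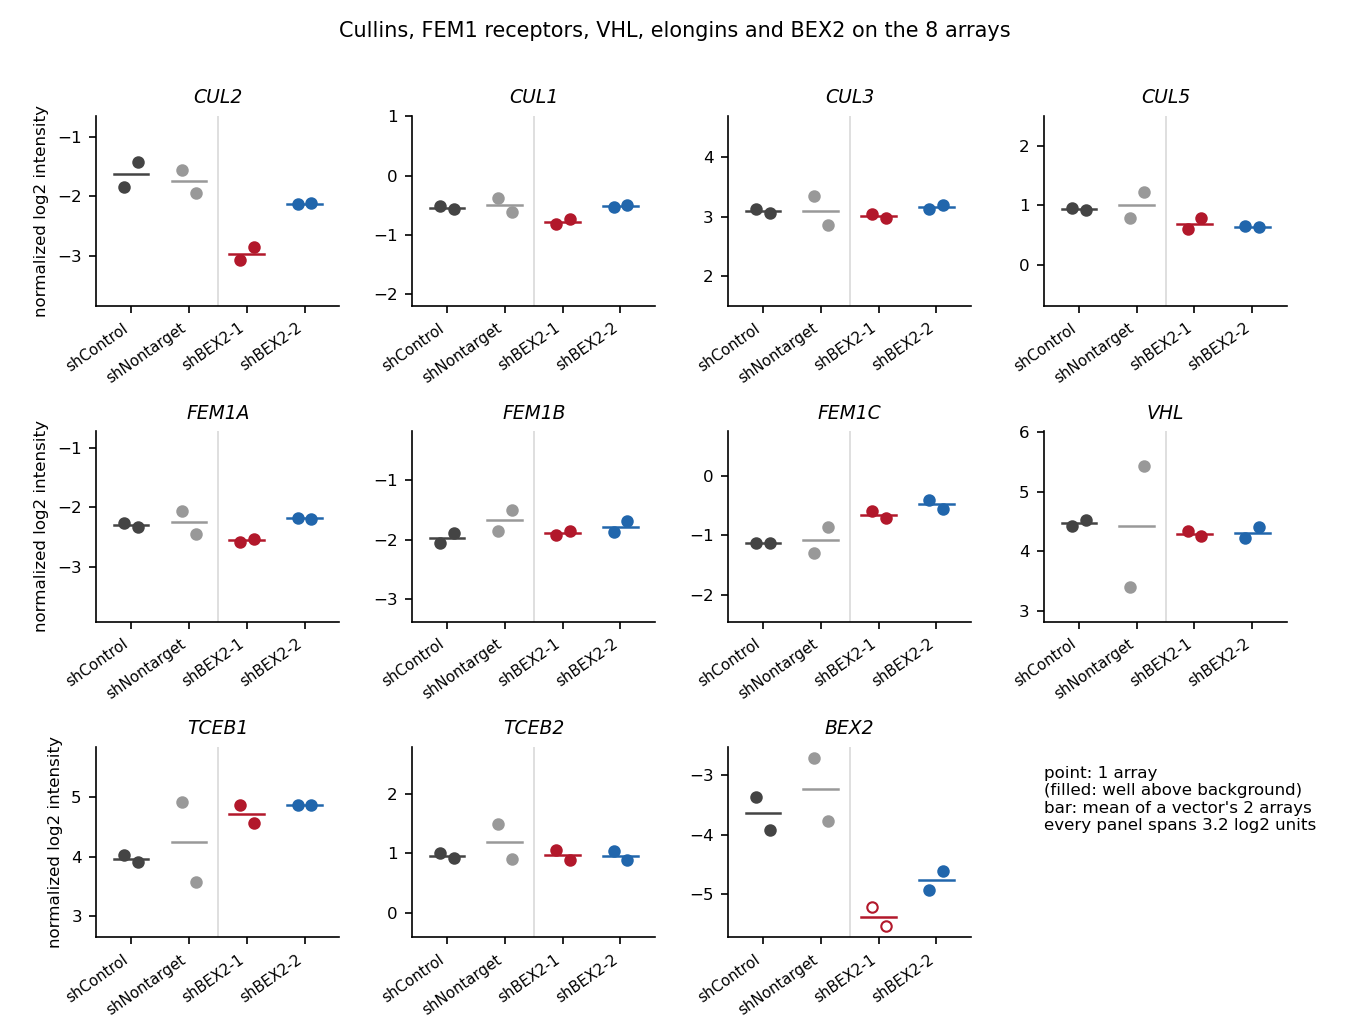
Normalized log2 intensity (y axis) of the 10 genes and of BEX2 on the 8 arrays, by vector (x axis). Points are arrays, open where the probe was not well above background, bars are the means of a vector's 2 arrays, and every panel spans the same log2 range. The 4 knockdown arrays lie below the 4 control arrays for CUL2 and BEX2 and above them for FEM1C.

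CUL2, the scaffold to which FEM1 proteins and VHL dock through the elongins, was lower on every knockdown array. The normalized log2 values of CUL2 were -1.84 and -1.41 in shControl and -1.55 and -1.94 in shNontarget, a control mean of -1.69 ± 0.24 (SD, n = 4). In shBEX2-1 cells they were -3.07 and -2.86, and in shBEX2-2 cells -2.13 and -2.11. The shBEX2-1 arrays lay far below all control arrays and the shBEX2-2 arrays just below them, with a gap of 0.17 between the nearest arrays of the groups. The processed intensities behind them were 203 and 334 in shControl, 255 and 175 in shNontarget, 52.8 and 71.1 in shBEX2-1, and 141 and 147 in shBEX2-2.

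Over both hairpins the CUL2 difference was -0.85 (SE 0.25, 95% confidence interval -1.42 to -0.29), a 1.81-fold lower signal, with an adjusted p of 0.0553 that misses the threshold. In the model of the 4 vectors, CUL2 was called lower in shBEX2-1 cells, by -1.27 (SE 0.20, adjusted p = 0.0183), a 2.42-fold lower signal. In shBEX2-2 cells the CUL2 difference was -0.44 (95% confidence interval -0.91 to 0.04, adjusted p = 0.246). The difference between the hairpins was -0.84 (SE 0.23), with an unadjusted p of 0.00917 but an adjusted p of 0.352 over all genes. The control vectors differed in CUL2 by -0.12 (adjusted p = 0.999), so the spread between the controls was small against the shift in shBEX2-1 cells.

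The CUL2 calls were close to the threshold in both directions. The direction of the 4 against 4 comparison was the same under 22 alternatives, with values from -1.0 to -0.52, and 4 of them placed it past the threshold: normexp background correction, the vector as a random block, the array shNontarget replicate 2 left out, and the model of the 4 vectors. The call in shBEX2-1 cells was lost when any array other than those of shNontarget was left out, and held without either shNontarget array. Each such fit leaves 1 array for a vector. Where the CUL2 call was lost, most calls over the whole array were lost too, and without an shNontarget array they rose. The loss is thus not particular to CUL2. The difference between the hairpins passed the threshold only without an shNontarget array, where calls rose in that comparison as well. With single arrays left out, the CUL2 difference ran from -1.38 to -1.17 in shBEX2-1 cells and from -0.94 to -0.73 between the hairpins.

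CUL5 is the scaffold that shares the elongin adaptors with CUL2. Its normalized log2 values were 0.96 and 0.91 in shControl, 0.79 and 1.22 in shNontarget, 0.59 and 0.79 in shBEX2-1, and 0.64 and 0.63 in shBEX2-2. The groups met at a single point, where the lowest control array and the highest knockdown array were both at 0.79, and the difference of -0.31 (SE 0.13, adjusted p = 0.155) was not called. With shControl alone as the control the CUL5 difference was -0.27 (adjusted p = 0.0480), in a fit that called 33.4% of all genes.

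CUL1 and CUL3, the scaffolds that use other adaptors, showed smaller differences. CUL1 ran from -0.61 to -0.37 on the control arrays and from -0.81 to -0.49 on the knockdown arrays, a difference of -0.12 (95% confidence interval -0.41 to 0.16, adjusted p = 0.579). Its lowest arrays were those of shBEX2-1, at -0.81 and -0.74, with shBEX2-2 at -0.53 and -0.49 among the controls. CUL3 ran from 2.86 to 3.34 on the control arrays and from 2.98 to 3.19 on the knockdown arrays, and its difference of -0.0069 had a 95% confidence interval of -0.31 to 0.29. A second CUL3 probe with a dimmer signal, also well above background on all 8 arrays, differed by 0.024.

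**Figure D2:**
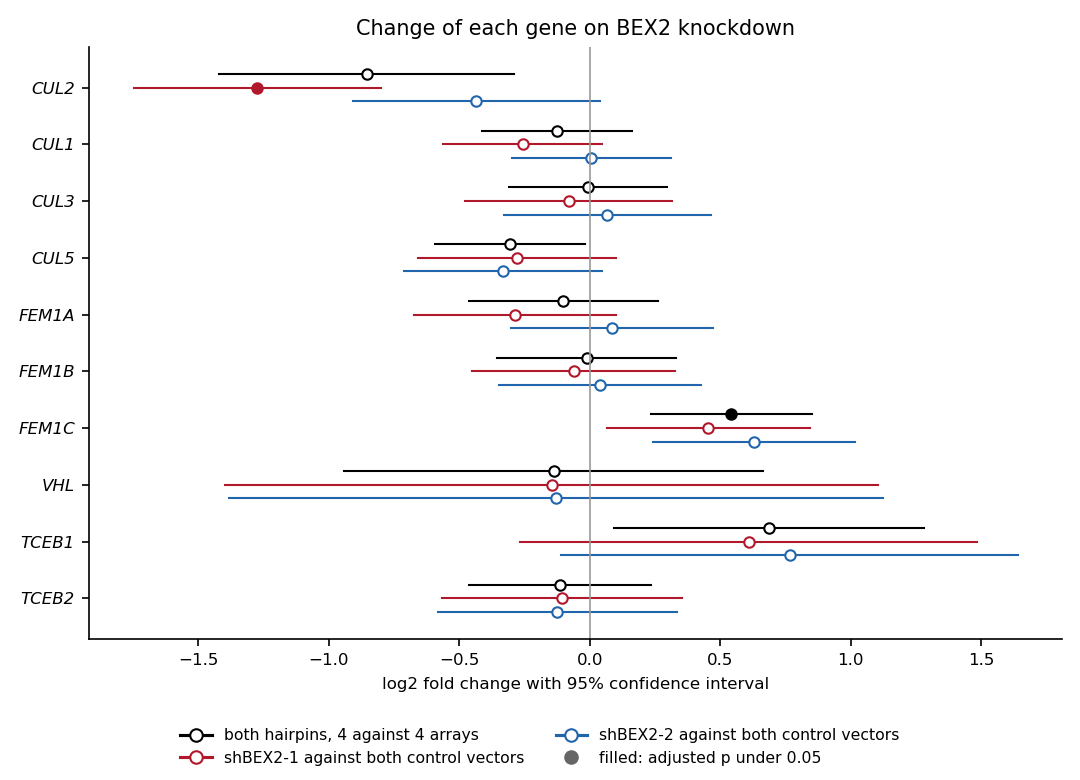
Log2 fold change (x axis) with its 95% confidence interval for the 10 genes (y axis), for both hairpins together and for each hairpin against the mean of the control vectors. Filled points have an adjusted p under 0.05: FEM1C over both hairpins and CUL2 in shBEX2-1 cells.

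The elongins bridge CUL2 or CUL5 to a receptor. TCEB1 (elongin C) was at 4.03 and 3.91 in shControl, 4.92 and 3.57 in shNontarget, 4.86 and 4.57 in shBEX2-1, and 4.88 and 4.87 in shBEX2-2. Every knockdown array of TCEB1 was above 3 of the control arrays and below the remaining one, shNontarget replicate 1. The TCEB1 difference was 0.69 (SE 0.26, adjusted p = 0.127) and was not called. Without shNontarget replicate 1, where 23.1% of all genes were called, it was 0.96 (adjusted p = 0.00300). With shControl alone as the control, where 33.4% were called, it was 0.83 (adjusted p = 0.00170). After quantile normalization it was 0.63 (adjusted p = 0.0480), so the call turned on that array and on the scaling.

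TCEB2 (elongin B) stayed within the spread of the controls. Its values ran from 0.90 to 1.5 on the control arrays and from 0.88 to 1.05 on the knockdown arrays, with a difference of -0.12 (95% confidence interval -0.46 to 0.23, adjusted p = 0.682). The highest array was again shNontarget replicate 1.

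Of the substrate receptors, FEM1C was called higher and the others were not called. The normalized log2 values of FEM1C were -1.12 on both shControl arrays and -1.30 and -0.87 in shNontarget. They were -0.58 and -0.71 in shBEX2-1 and -0.40 and -0.55 in shBEX2-2. All knockdown arrays were above all control arrays, with a gap of 0.15 between the nearest arrays, and both hairpins moved the same way. The processed intensities of FEM1C ran from 304 to 385 on the control arrays and from 294 to 468 on the knockdown arrays and overlapped, so that its rise appears after each array is scaled by its own 75th percentile.

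The FEM1C difference was 0.54 (SE 0.14, 95% confidence interval 0.23 to 0.85, adjusted p = 0.0324), a 1.46-fold higher signal. Each hairpin alone gave 0.45 (adjusted p = 0.163) for shBEX2-1 and 0.63 (adjusted p = 0.0643) for shBEX2-2, and the hairpins differed by -0.18 (95% confidence interval -0.62 to 0.27). The direction held under 22 alternatives, from 0.42 to 0.62, and the call held under 13 of them. It was lost after normexp background correction (adjusted p = 0.0514), with shNontarget alone as the control (0.219), when any array other than those of shNontarget was left out (0.0555 to 0.113), and when shNontarget replicate 1 and shBEX2-1 replicate 1 were left out together (0.0604).

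FEM1B is the receptor that the study examined with BEX2. Its normalized log2 values were -2.05 and -1.88 in shControl, -1.84 and -1.50 in shNontarget, -1.92 and -1.84 in shBEX2-1, and -1.87 and -1.69 in shBEX2-2. The knockdown arrays lay inside the range of the controls, and the difference was -0.012 (95% confidence interval -0.35 to 0.33, adjusted p = 0.973). A change of FEM1B RNA beyond those bounds, in either direction, lies outside the interval, while a smaller change was not detectable with 8 arrays.

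FEM1A, the closest relative of FEM1C, ran from -2.44 to -2.06 on the control arrays and from -2.58 to -2.19 on the knockdown arrays. The shBEX2-1 arrays of FEM1A, at -2.58 and -2.53, were its lowest and the shBEX2-2 arrays, both at -2.19, lay inside the controls. Its difference was -0.10 (95% confidence interval -0.46 to 0.26, adjusted p = 0.739). A second FEM1A probe was well above background on 3 of 8 arrays and was not used, and the files place it on chromosome 18 from 14391919 to 14391978, away from the gene's locus on chromosome 19.

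VHL, the receptor for HIF-alpha, had the widest interval of the 10 genes. Its normalized log2 values were 4.42 and 4.52 in shControl, 3.40 and 5.44 in shNontarget, 4.34 and 4.26 in shBEX2-1, and 4.23 and 4.40 in shBEX2-2. The shNontarget arrays were the lowest and the highest of the 8, with a gap of 2.04, while the other 6 arrays lay between 4.23 and 4.52. The VHL difference was -0.14 with a 95% confidence interval of -0.94 to 0.66 (adjusted p = 0.843).

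The same pair of arrays set the spread of most members. For 9 of the 10 genes the widest gap between the arrays of one vector was in shNontarget, the exception being CUL2. For 8 of the 10, all but CUL2 and FEM1B, the lowest and the highest control array were both shNontarget arrays. Outside shNontarget, the largest gap between the arrays of a vector was 0.43, for CUL2 in shControl.

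**Figure D3:**
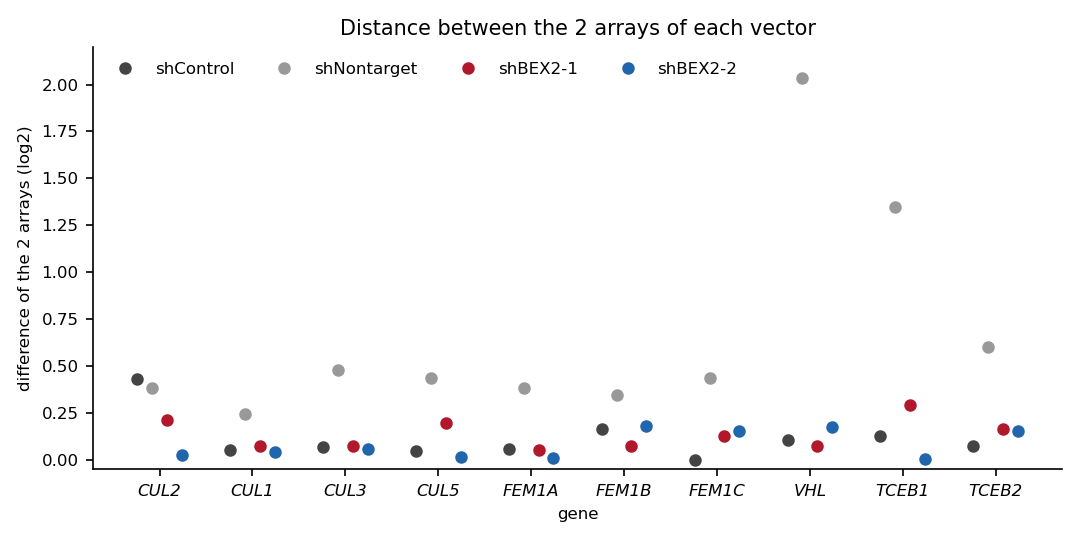
Absolute difference between the 2 arrays of each vector on the log2 scale (y axis) for the 10 genes (x axis). The shNontarget gaps of VHL (2.04) and TCEB1 (1.35) are the only ones over 1.

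The share of the 10 genes that was called was near that of the array. Over both hairpins 1 of 10 was called (FEM1C, higher), against 12.9% of all genes tested, and 4 of 10 had an unadjusted p under 0.05, against 5679 of 20464 genes. In the single directions that is 1 of 10 higher, against 6.68% of all genes, and 0 of 10 lower, against 6.26%. In shBEX2-1 cells 1 of 10 was called (CUL2, lower) against 7.00% of all genes, and in shBEX2-2 cells 0 of 10 against 9.67%, with 1 of 10 at an unadjusted p under 0.05, against 4877 of 20464 genes. The knockdown and control arrays did not overlap for 2 of 10 genes, CUL2 and FEM1C, against 22.1% of all genes. The median log2 difference of the 10 genes was -0.11, beside 0.03 for all genes, and 8 of the 10 had a negative difference (6 after normexp), against 9693 of 20464 genes. In shBEX2-2 cells 4 of the 10 were negative, with a median of 0.02. Between the hairpins 0 of 10 genes were called by limma, against 0.00977% of all genes, and 1 of 10, CUL2, had an unadjusted p under 0.05. Between the control vectors 0 of 10 were called, against 0 of 20464 genes (1564 at an unadjusted p under 0.05, none of them a member).

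Over the 8 arrays the genes whose values ran most like those of CUL2 were RAB33A (Pearson r = 0.99), GPR115 (r = 0.99) and PHACTR1 (r = 0.98). Those 3 genes had log2 differences of -0.76 to -0.88 and, like CUL2, were not called. In all, 196 of 20464 genes tested had an r over 0.9 with CUL2, and the tenth highest r was 0.97. The arrays hold only 4 vectors. For FEM1B the most alike were CDC37 (r = 0.96), SDHA (r = 0.95) and USP48 (r = 0.95), none of them called, and 30 genes had an r over 0.9. Among the members themselves, CUL1 and FEM1A ran together most closely (r = 0.97), and CUL5 and TCEB1 ran most oppositely (r = -0.92). These are descriptions over 8 arrays that share a scaling and the spread of shNontarget.

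The other parts of the cullin pathway were read from lists of known components. Among the other CUL2 substrate receptors, 1 of 7 genes tested was called higher and 2 were called lower. Over both hairpins 12.9% of all genes were called in either direction, the share to set beside each list below. It was 14.6% after quantile normalization and 13.8% after normexp. For a hairpin taken singly it was 7.00% in shBEX2-1 cells and 9.67% in shBEX2-2 cells. LRR1 (named PPIL5 on the array), a leucine-rich repeat receptor, rose by 1.43 (SE 0.20, adjusted p = 0.00330). KLHDC2, a Kelch receptor for C-terminal degrons ending in glycine, fell by 0.89 (SE 0.16, adjusted p = 0.00738), and APPBP2 fell by 0.62 (SE 0.13, adjusted p = 0.0171). All 3 had the same sign with each hairpin. The calls of LRR1 and KLHDC2 held with any single array left out, and that of APPBP2 was lost without any array of shControl or shBEX2-2 (adjusted p up to 0.0661). The list's median was -0.23.

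The CUL5 receptors held 1 rise and 3 falls among 23 genes, with a median of -0.22. Taken singly, shBEX2-1 gave 1 rise and 5 falls, against 7.00% of all genes called. The hairpin shBEX2-2 gave 1 rise and 2 falls, against 9.67%. ASB9 rose by 1.42 (adjusted p = 0.000841), while the cytokine-signalling suppressors SOCS2 and SOCS5 fell by 0.96 (adjusted p = 0.0392) and 0.60 (adjusted p = 0.0485). RAB40B, a small GTPase that binds CUL5, fell by 0.81 (adjusted p = 0.00892). In shBEX2-2 cells SOCS2 and SOCS5 were not called (adjusted p = 0.0906 and 0.215). The SOCS2 call was lost without any array of shControl or shBEX2-1 (up to 0.105), and the SOCS5 call without any array but shNontarget replicate 1 (up to 0.128). With the replicate block SOCS2 had an adjusted p of 0.0509 and SOCS5 of 0.0560. The calls of ASB9 and RAB40B held with any single array left out.

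Of 14 partners of CUL1, 4 were called higher and 3 lower over both hairpins, and after normexp 4 higher and 1 lower. The hairpins taken singly gave 3 calls (2 of them higher) for shBEX2-1, against 7.00% of all genes. For shBEX2-2 there were 4 (3 of them higher), against 9.67%. SKP2, the F-box protein for the cell cycle inhibitor p27, rose by 1.59 (adjusted p = 0.00126), its cofactor CKS1B rose by 1.02 (adjusted p = 0.0257), and the mitotic F-box protein cyclin F (CCNF) rose by 1.35 (adjusted p = 0.00652). FBXO32, the atrophy-related F-box protein atrogin-1, fell by 0.85 (adjusted p = 0.00255), and BTRC, the receptor for phosphorylated beta-catenin, fell by 0.53 (adjusted p = 0.0243). The calls of SKP2, CCNF and FBXO32 held with any single array left out. That of CKS1B was lost without any array other than those of shNontarget (adjusted p up to 0.0817), and that of BTRC without any array of shControl or shBEX2-2 or without shBEX2-1 replicate 1 (up to 0.0908). The list's median was -0.08. CUL1 itself, as given above, was not called.

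Of 18 BTB partners of CUL3 tested, 2 were called higher and 1 lower, with a median of 0.02. KLHL7 rose by 0.87 (adjusted p = 0.0247), TNFAIP1 rose by 0.46 (adjusted p = 0.0438), and KLHL12 fell by 0.44 (adjusted p = 0.0332). All 3 calls were lost when any array other than those of shNontarget was left out, with adjusted p up to 0.0780, 0.128 and 0.110. With the mean of its probes KLHL7 was at 0.15 (adjusted p = 0.617), and with the replicate block TNFAIP1 had an adjusted p of 0.0598. In shBEX2-1 cells 0 of the 18 were called, against 7.00% of all genes, and in shBEX2-2 cells 1, against 9.67%. In shBEX2-1 cells 5 of the 18 had an unadjusted p under 0.05, against 4665 of 20464 genes. Of the 5 other cullins, CUL7 was called lower, by -1.05 (SE 0.23, adjusted p = 0.0190), and the list's median was -0.28. With the hairpins taken singly, CUL7 was called in shBEX2-2 cells (-1.37, adjusted p = 0.0186) but not in shBEX2-1 cells (-0.72, adjusted p = 0.130). The CUL7 call was lost without any array of shControl or shBEX2-2 (adjusted p up to 0.0650).

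Around VHL, 1 of 8 genes tested was called higher and 2 lower, with a median of 0.01. EPAS1, the HIF-2 alpha subunit that VHL targets, fell by 1.79 (SE 0.15, adjusted p = 0.000700), and ARNT2, a partner subunit, fell by 0.74 (adjusted p = 0.00657). EGLN1, a prolyl hydroxylase that prepares HIF-alpha for VHL, rose by 0.54 (adjusted p = 0.0413), a call lost without any array other than those of shNontarget (up to 0.133) and with the replicate block (0.0556), while the EPAS1 and ARNT2 calls held with any single array left out. Their signs were the same with each hairpin.

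The shared machinery of cullin ligases gave no call as processed here. Of 14 genes of the RING subunits and the NEDD8 cycle, which activates cullins, 0 were called and 4 had an unadjusted p under 0.05. After quantile normalization 2 of those 14 were called higher and 1 lower, and after normexp 1 was called higher. The largest difference there was that of DCUN1D3, a NEDD8 ligase cofactor, at 0.71 (adjusted p = 0.0600). The COP9 signalosome, which removes NEDD8, was read from 9 genes, and ubiquitin-conjugating enzymes with the ARIH ubiquitin ligases from another 9. Both lists had 0 calls and 0 genes with an unadjusted p under 0.05. Their largest differences were those of COPS3 (0.40, adjusted p = 0.232) and UBE2L3 (0.53, adjusted p = 0.221). TCEB3 (elongin A), the 1 gene tested of its list, was at 0.11 (adjusted p = 0.602). The medians of these lists were 0.13, 0.03, 0.02 and 0.11.

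Among known FEM1 substrates and the BEX family, BEX2, the targeted gene, was the only call among 5 genes tested, and the list's median was 0.39. After normexp 0 of the 5 were called. In shBEX2-1 cells BEX2 was again the only call. In shBEX2-2 cells 1 other gene of the list was called higher and BEX2 was not called. The proteasome, where ubiquitinated proteins end, had differences mostly of one sign. Of all genes 10771 of 20464 had a positive difference. In the 20S core 1 of 17 genes was called, PSMB3 (0.85, adjusted p = 0.0455), and 16 of 17 differences were positive (15 after quantile normalization or normexp) with a median of 0.43. In the 19S regulator 3 of 19 were called, PSMD12 (0.85, adjusted p = 0.0260), PSMD11 (0.81, adjusted p = 0.0117) and PSMD1 (0.48, adjusted p = 0.0499), and 19 of 19 were positive (18 under either of those scalings) with a median of 0.28. The PSMD11 call held with any single array left out. Those of PSMB3 and PSMD1 were lost without any array other than those of shNontarget (adjusted p up to 0.126 and 0.149), and that of PSMD12 without any of the same arrays but shBEX2-1 replicate 2 (up to 0.0883). PSMD1 also lost its call with the replicate block (0.0658). Taken singly, shBEX2-1 gave 0 calls in both proteasome lists, against 7.00% of all genes. In shBEX2-2 cells 0 of 17 and 1 of 19 were called (PSMD11, adjusted p = 0.0224), against 9.67%. Positive differences numbered 17 of 17 and 18 of 19 in shBEX2-1 cells, and 15 of 17 and 19 of 19 in shBEX2-2 cells.

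**Figure D4:**
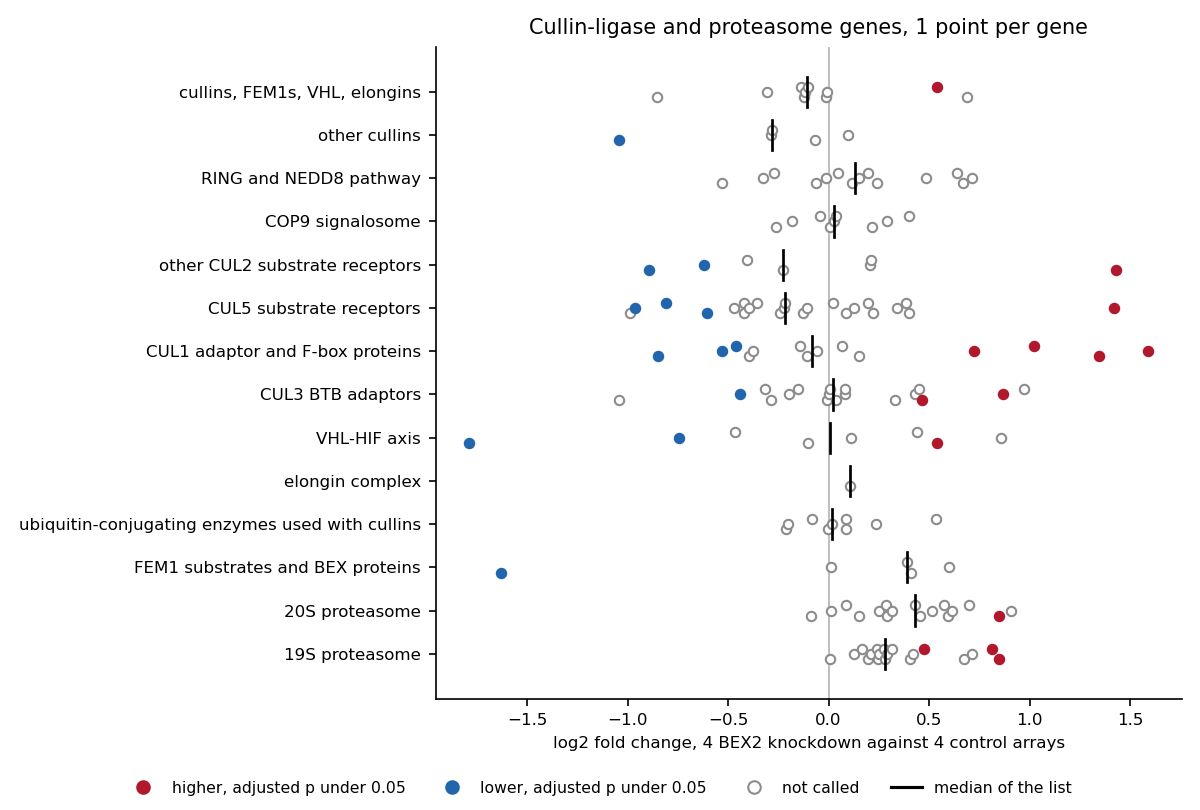
Log2 fold change over both hairpins (x axis) of every gene tested in the lists of cullin-ligase and proteasome genes (y axis), with list medians as black bars. Red and blue points have an adjusted p under 0.05, and 16 of 17 genes of the 20S and 19 of 19 of the 19S proteasome lie right of 0 (15 and 18 after quantile normalization or normexp).

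**Figure D5:**
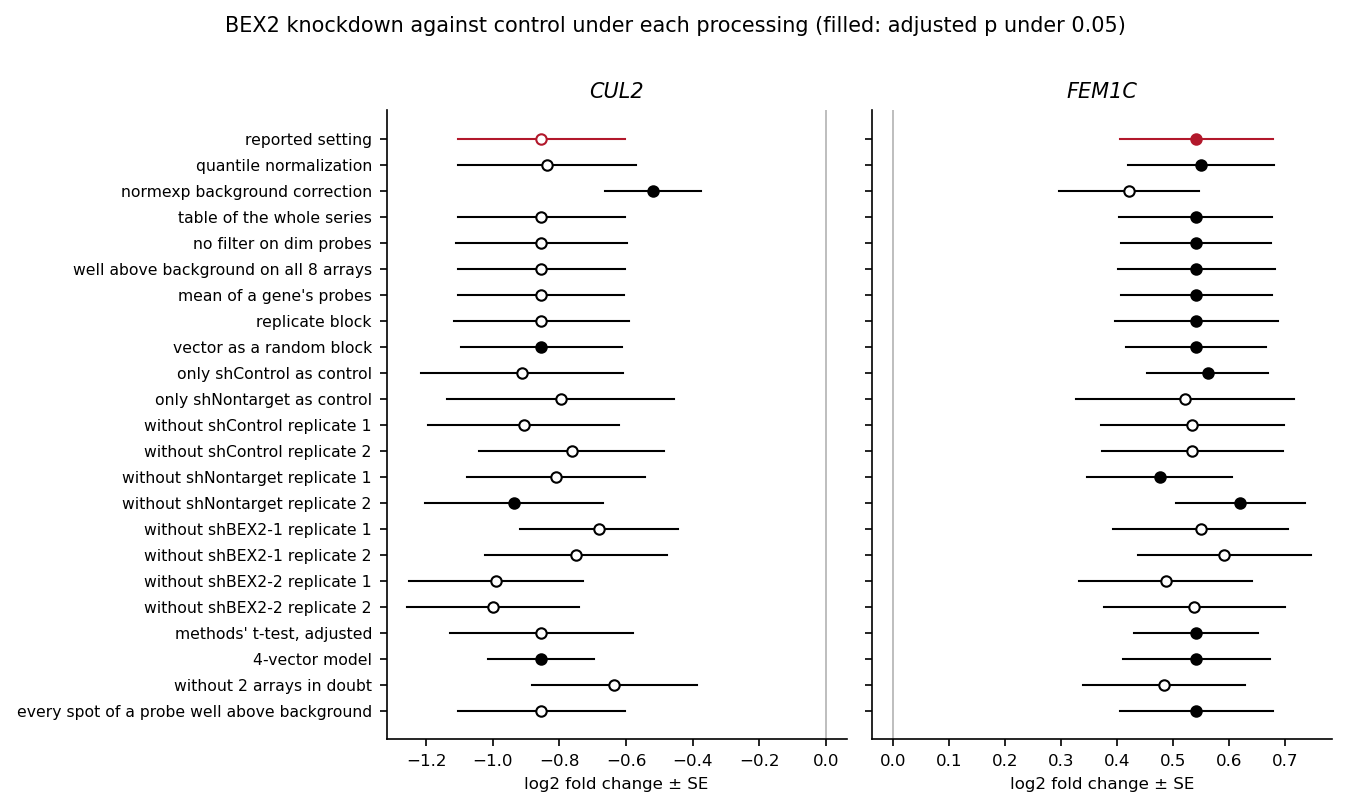
Log2 fold change ± SE (x axis) of CUL2 and FEM1C over both hairpins under each processing (y axis), filled where the adjusted p is under 0.05. CUL2 stays between -1.0 and -0.52 and FEM1C between 0.42 and 0.62, and each crosses the threshold under some settings.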

How the data were processed

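Total RNA was labelled with Cy3 by the Low Input Quick Amp method and hybridized to Agilent arrays of 1 slide. The deposited intensity of a spot is the processed signal of Agilent Feature Extraction 10.7.3.1, from which that software had taken the background and a trend across the array, and the file headers give probe positions on hg19. It is not scaled between arrays, and low values (19.9% to 25.9% of spots) are a surrogate. The table of the whole series that the authors deposited holds the same intensities, rounded. Saturated spots numbered 0.

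From these, outlier spots (3 to 15 per array) were set missing, each array's 75th percentile of log2 intensity was subtracted, spots of a probe were averaged, and probes with at least a share of 0.5 of their spots well above background on 4 arrays were kept. A gene's brightest probe was used. limma 3.58.1 (R 4.3.3, statmod 1.5.0) fitted 4 knockdown against 4 control arrays, and a model of the 4 vectors, with eBayes and a variance trend. Adjusted p is by Benjamini-Hochberg over 20464 genes. Limma was used because the methods name a rank product package without settings. Fits were tested on simulated data. Files were read and drawn with matplotlib 3.10.9, pandas 2.3.3 and numpy 2.4.6 under Python 3.11.15.

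The reported fits are unpaired, and only the replicate block takes the replicate numbers to pair arrays. Names of the deposited files give each number a day, without saying what was done on it. Replicate differences of 2 vectors correlated across genes with r of 0.26, 0.13, -0.063, 0.11, 0.21 and 0.23. The members, lists and tests were chosen with earlier results of these data known. Besides the members and BEX2, the text names up to 3 called genes each way of a list, else its largest difference, and the 3 genes most like CUL2 and FEM1B. A called gene of the CUL1 list is counted but not reported here. Names were matched by RefSeq accession (GRCh38.p14) for 13 of 13 probes of members and BEX2. The alternatives covered normalization, background, filters, probes, blocks, control vectors, left-out arrays, the methods' t-test and a minimum effect. The number of arrays limits the precision.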

Additional observations from a re-analysis of the deposited data

Results flagged for a closer look

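TCEB1 on shBEX2-1 replicate 2 lay apart from the other knockdown arrays, at 4.57 against 4.86 to 4.88, and its gap to the nearest of them was 0.959 of the whole range. Of 22 sets of 4 arrays examined, this was the 1 that stood out, and chance gives about 1 in 20. Without this array the TCEB1 difference was 0.76 in place of 0.69, and neither passed the threshold.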

How the results depend on the processing

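The directions of CUL2, FEM1C, CUL5, TCEB1, CUL1 and BEX2 were the same under every alternative run. Signs turned for members with differences near 0. After normexp FEM1A was at 0.080 and FEM1B at 0.066, with the mean of its probes CUL3 was at 0.0087, and with shControl alone FEM1B was at 0.136 and TCEB2 at 0.0020. With single arrays left out, CUL3 ran from -0.086 to 0.074, FEM1B from -0.088 to 0.095, TCEB2 from -0.177 to 0.024 and VHL from -0.486 to 0.193, with the VHL ends set by leaving out either shNontarget array. Without both shNontarget replicate 1, which had the most surrogate values, and shBEX2-1 replicate 1, which had the lowest 75th percentile, CUL3 was at 0.086, FEM1A at 0.040 and FEM1B at 0.0086, CUL2 at -0.64 (adjusted p = 0.123) and FEM1C at 0.48 (adjusted p = 0.0604).

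The share of all genes called in the same fit is given in brackets. Of the 10 members, 2 were called over both hairpins after quantile normalization (14.6%) and in the model of the 4 vectors (13.6%). With the vector as a random block, at a consensus correlation of -0.137, 2 were called as well (16.6%). Members called numbered 3 with shControl alone (33.4%) and by the unadjusted methods' t-test (26.5%). They numbered 0 with shNontarget alone (1.66%) and with a minimum log2 fold change of 1 (5.67%). After normexp the 1 member called was CUL2, lower, in place of FEM1C (13.8%). In shBEX2-2 cells 1, FEM1C, was called after quantile normalization (10.9%). Genes called over both hairpins numbered 2648 as reported, 6842 with shControl alone, 340 with shNontarget alone, 5417 by the unadjusted t-test and 1160 with the minimum effect. In shBEX2-1 cells 1432 became 2420 after normexp. Between the hairpins 2 became 17 after quantile normalization and 0 after normexp, without a filter, and with the replicate block. With single arrays left out, genes called ran from 1243 to 4728 over both hairpins (members 0 to 2), from 0 to 10821 in shBEX2-1 (members 0 to 8), from 0 to 11149 in shBEX2-2 (members 0 to 6), from 0 to 9466 between the control vectors (members 0 to 4) and from 0 to 3016 between the hairpins (members 0 to 1). The high ends came without an shNontarget array, where the lone array left is assumed to vary like the other groups. The cause was not tested.

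With the replicate block CUL2 was at -0.85 (adjusted p = 0.0725) and FEM1C at 0.54 (adjusted p = 0.0469), and the block changed no call of a member. With shNontarget alone as the control the calls of the list genes named above were lost, except those of ASB9, SKP2, KLHDC2, FBXO32 and EPAS1. The model of the 4 vectors for the 4 against 4 comparison, the 2 arrays left out together, each probe on its own and the stricter spot rule were chosen after seeing the data. Dim signals limit BEX2 and the second FEM1A probe.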
